A study of Mus musculus with 22 samples.

Results

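Rlf is a protein with widely spaced zinc fingers that was found as a modifier of transgene silencing. The livers described here come from E14.5 mouse embryos that lacked it and from wild-type littermates. Methylation was compared over 889505 tiles, the windows of 1 kb on chromosomes 1 to 19 that held at least 8 CpGs covered by 6 or more reads in each of the 4 livers. The 3 tissues of the series together gave 890067 such tiles. Of the E14.5 liver tiles 1152 gained and 37 lost methylation in the mutants, where a gain or loss is an adjusted p under 0.05 in edgeR's quasi-likelihood test together with a difference above 15 percentage points (points below). All 889505 tiles make up the comparison, and the tiles that differed are described by their genes, CpG density and wild-type level.

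DNA methylation in mammals sits mainly on the cytosine of CpG dinucleotides and is copied at each cell division by maintenance methyltransferases. Most CpGs of the genome are highly methylated, while CpG islands at promoters are mostly free of methylation and many enhancers hold intermediate levels. At mid-gestation the liver is the main site of red cell formation, so that erythroblasts, hepatoblasts and smaller populations contribute DNA to a whole-liver sample.

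The mice were FVB/NJ of the Line3 colony, and the reporter of that colony, a GFP array of several copies with human alpha-globin promoter and HS-40 enhancer sequences, was present on both chromosome copies in mutants and controls alike. Mutants were Rlf MommeD28/MommeD28, homozygous for an allele induced by N-ethyl-N-nitrosourea (ENU) that the study describes as null, and controls were Rlf +/+. Whole-genome bisulphite sequencing, in which unmethylated cytosines are converted and read as thymine, was done on 2 wild-type and 2 mutant E14.5 livers, one liver per library, labelled male for replicate 1 and female for replicate 2 of each genotype. The same assay was available for 2 wild-type and 2 mutant samples each of E18.5 liver and E10.5 whole embryo, and RNA-seq for 3 wild-type and 3 mutant E14.5 livers. The E18.5 livers were labelled female and the E10.5 embryos male. RNA replicates 1 and 2 of each genotype were labelled male and replicate 3 female. These samples belong to one series of 22. Since the samples were whole livers, a change in the methylation of one cell type and a change in the share of that cell type cannot be told apart.

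The 4 E14.5 libraries held read counts of 617827345 to 697227249 summed over autosomal CpGs, or 32.2 to 36.1 reads per covered CpG. Of the counts at spiked-in lambda CpGs, 0.0412% to 0.0590% were unconverted. A tile that gained methylation rested on a median summed count of 604 per liver. In such sums a read counts once for each CpG that it covers, so they exceed the number of separate reads. With 2 livers against 2, an exact permutation test cannot give a p below 0.33, so p-values for tiles come from the model fitted across all tiles. Averaged over all tiles, wild-type liver 1 had 61.2% methylation, wild-type liver 2 63.9%, mutant liver 1 65.0% and mutant liver 2 64.2%. Both mutants were thus above both wild types, by 2.03 points on average (exact two-sided permutation p = 0.33, the smallest possible). The gap between the wild-type livers was 2.67 points, and wild-type liver 2 lay 1.08 and 0.301 points below the mutants. Without wild-type liver 1 the mean difference was 0.692 points.

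Rlf mutant livers gained methylation at discrete sites far more often than they lost it. Gained tiles were 0.130% of all tiles and 96.9% of the tiles called, and lost tiles were 0.00416%. Over the 1152 gained tiles, wild-type livers 1 and 2 averaged 36.7% and 38.0%, and mutant livers 1 and 2 averaged 56.3% and 55.05%. The genotype means differed by 18.3 points, and these same values selected the tiles. Tile by tile, the root mean square gap was 5.14 points between the wild types and 5.16 points between the mutants. It was 17.7 to 20.2 points between livers of different genotype, a contrast that the choice of tiles shaped. Over all tiles these gaps were 4.94 points, 4.22 points and 4.34 to 5.88 points. The 37 lost tiles averaged 57.9% and 58.9% in wild type and 42.6% and 40.2% in mutants. The median change was 17.1 points among gained tiles and -16.1 points among lost tiles, beside 1.87 points over all tiles.

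Both thresholds shaped these counts. An adjusted p under 0.05 without the 15 points was met by 5423 tiles, 5172 of them with the mutants higher. An unadjusted p under 0.05 was found for 85542 tiles (9.62%). A rise above 15 points missed the adjusted p at 123 tiles. Just inside the limit, 330 tiles rose by 15 to 16 points from a median wild-type level of 42.5%, and just outside it 422 rose by 14 to 15 points from the same median. The count of gained tiles moved when a liver was left out, a fit in which the lone liver of one genotype is assumed to vary like the pair of the other. It was 3676 without wild-type liver 2, 577 without mutant liver 1, 848 without mutant liver 2 and 1074 without wild-type liver 1, and 489 to 963 of the 1152 tiles were called again in each of these. Lost tiles numbered 83 without wild-type liver 1, 58 without wild-type liver 2, 14 without mutant liver 2 and 37 without mutant liver 1.

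The sequences of 6 stretches are shown as examples of the DNA that gained or lost methylation. Each line gives 200 bases of the NCBIM37 (mm9) reference, plus strand, 5′ to 3′, taken where the change within the tile was greatest, with CpGs that differed by 20 points or more between the genotype means in capitals. The reference is C57BL/6J and the livers were FVB, so single bases can differ. The first 3 are from tiles among the 4 with the greatest gains, the next is a tandem repeat that gained methylation, and the last 2 are from the 2 greatest losses among tiles with 10 reads per CpG in each liver and no overlap.
Intergenic gain on chromosome 10, chr10:120131623-120131822: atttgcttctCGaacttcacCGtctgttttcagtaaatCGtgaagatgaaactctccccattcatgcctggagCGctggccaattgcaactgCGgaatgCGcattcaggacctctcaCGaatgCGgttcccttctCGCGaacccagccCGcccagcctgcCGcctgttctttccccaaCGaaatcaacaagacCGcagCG
Gain in an exon of Basp1, chr15:25294010-25294209: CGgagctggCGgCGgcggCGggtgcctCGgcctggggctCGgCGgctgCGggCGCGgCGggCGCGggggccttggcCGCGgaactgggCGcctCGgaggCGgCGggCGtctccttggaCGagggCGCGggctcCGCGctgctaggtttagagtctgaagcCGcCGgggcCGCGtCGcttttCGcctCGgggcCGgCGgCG
Intergenic gain on chromosome 12, chr12:87555292-87555491: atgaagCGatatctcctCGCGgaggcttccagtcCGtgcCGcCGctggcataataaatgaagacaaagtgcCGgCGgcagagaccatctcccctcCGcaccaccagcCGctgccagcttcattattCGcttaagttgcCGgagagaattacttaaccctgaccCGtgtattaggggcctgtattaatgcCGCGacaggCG
Gain in a tandem repeat on chromosome 15, chr15:90936514-90936713: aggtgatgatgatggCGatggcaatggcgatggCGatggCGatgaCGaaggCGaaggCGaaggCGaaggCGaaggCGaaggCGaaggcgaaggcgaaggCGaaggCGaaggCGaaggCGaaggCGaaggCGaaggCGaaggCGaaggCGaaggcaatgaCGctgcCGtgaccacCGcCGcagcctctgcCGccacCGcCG
Loss in an intron of Rhag, chr17:40961400-40961599: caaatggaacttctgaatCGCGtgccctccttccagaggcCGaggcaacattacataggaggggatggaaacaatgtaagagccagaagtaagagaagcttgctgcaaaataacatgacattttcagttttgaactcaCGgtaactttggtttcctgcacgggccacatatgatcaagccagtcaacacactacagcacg
Loss in an intron of Atm, chr9:53316217-53316416: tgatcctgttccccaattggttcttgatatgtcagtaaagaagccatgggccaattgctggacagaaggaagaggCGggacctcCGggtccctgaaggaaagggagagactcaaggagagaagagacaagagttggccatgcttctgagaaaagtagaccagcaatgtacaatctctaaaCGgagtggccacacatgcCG

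In the stretch on chromosome 10 all 15 covered CpGs rose by 20 points or more, from a mean of 11.4% in wild type to 60.7% in mutants. In the dense Basp1 stretch all 35 covered CpGs rose, from 15.6% to 63.6%. These windows were picked for their change, so how many CpGs rose in them is a description. The Rhag and Atm stretches are poorer in CpGs, with 6 and 4 covered, of which 4 and 4 fell by 20 points or more.

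Gained tiles together held 23055 covered CpGs. Of these, 77.8% were higher in both mutants than in both wild types and 0.885% were lower in both, beside 21.2% and 10.52% of all covered CpGs. Since the tiles were chosen for their difference, this describes how evenly it was spread and is no test. Gained tiles were mostly isolated. They formed 1044 runs of adjoining tiles, of which 948 were a single tile, 84 were 2 tiles and 12 were 3 tiles, the longest.

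The gain was local. In wild-type livers the gained tiles lay in dips of methylation, as the profile around gained tiles shows. In mutant livers 1 and 2 the centre stood above the DNA at 1 to 2 kb, which had 46.8% and 46.1%. It was near the level at 5 to 10 kb, which was 56.2% and 55.2% in these mutants. Within 500 bp of the tile centre wild-type livers averaged 34.5% and 35.3% and mutants 54.4% and 53.3%, a difference of 18.9 points. It fell to 10.54 points between 0.5 and 1 kb from the centre, to 5.90 points between 1 and 2 kb, and to 3.27 points between 5 and 10 kb, beside a mean of 2.03 points over all tiles. Wild-type levels rose outwards, to 51.4% and 53.4% at 5 to 10 kb. The profile in E18.5 liver and E10.5 embryo, which did not choose the tiles, had differences of 17.2 and 16.4 points at the centre and 2.93 and 3.59 points at 5 to 10 kb.

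**Figure D1:**
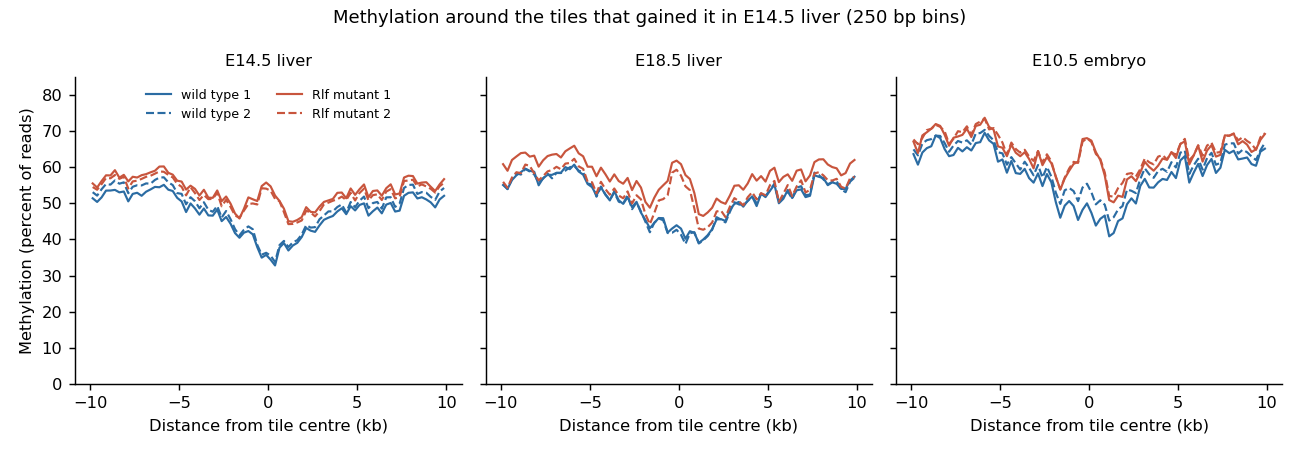
Methylation (percent of reads, 250 bp bins) against distance from the centre of the 1152 tiles that gained methylation in E14.5 liver, one line per library, in E14.5 liver, E18.5 liver and E10.5 embryo. In each tissue the 2 mutant libraries stand above the 2 wild-type libraries at the centre, by 18.9, 17.2 and 16.4 points within 500 bp, and E18.5 mutant 1 lies above the other E18.5 libraries over the whole window.

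The tiles that gained methylation started from intermediate levels. Their median wild-type level was 38.0% (95% binomial interval of the median 36.9% to 39.3%), beside 65.5% over all tiles, and their quartiles were 28.4% and 46.9%. Gains took up 0.0725% of tiles under 10% in wild type, 0.955% of those at 10 to 20%, 1.40% at 20 to 40%, 0.232% at 40 to 60% and 0.00788% at 60 to 80%, and there was no gain among 86718 tiles at 80% or over. A tile near full methylation cannot rise by 15 points, and a low wild-type value in the same livers raises the difference. The level in wild-type E18.5 livers, which takes no part in the call, gave the same order, with 0.962% at 10 to 20%, 1.21% at 20 to 40% and 0.551% at 40 to 60%. By that measure the median level of gained tiles was 45.1%. Nearly unmethylated DNA seldom gained, with 20 of 27604 tiles under 10% in wild type.

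Gained tiles were also denser in CpGs, with a median of 18 CpGs in the 1 kb of reference sequence (interval 18 to 19) against 12 over all tiles, and with 48.4% G and C against 45.5%. The share that gained rose from 0.0507% at 8 to 11 CpGs to 0.0934% at 12 to 15, 0.213% at 16 to 23 and 0.587% at 24 to 39, and was 0.477% at 40 and over. Among tiles at 20 to 60% in wild-type E18.5 liver the share rose from 0.166% at 8 to 11 CpGs to 1.04% at 16 to 23, 3.11% at 24 to 39 and 8.79% (58 of 660) at 40 and over. Tiles with under 8 CpGs in the reference, which were few, stood at 0.405% (3 of 741) there and at 0.0651% (8 of 12291) among all tiles. Dense tiles have larger read counts, since the count of a tile is summed over its CpGs. The part of that in the trend was not tested.

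**Figure D2:**
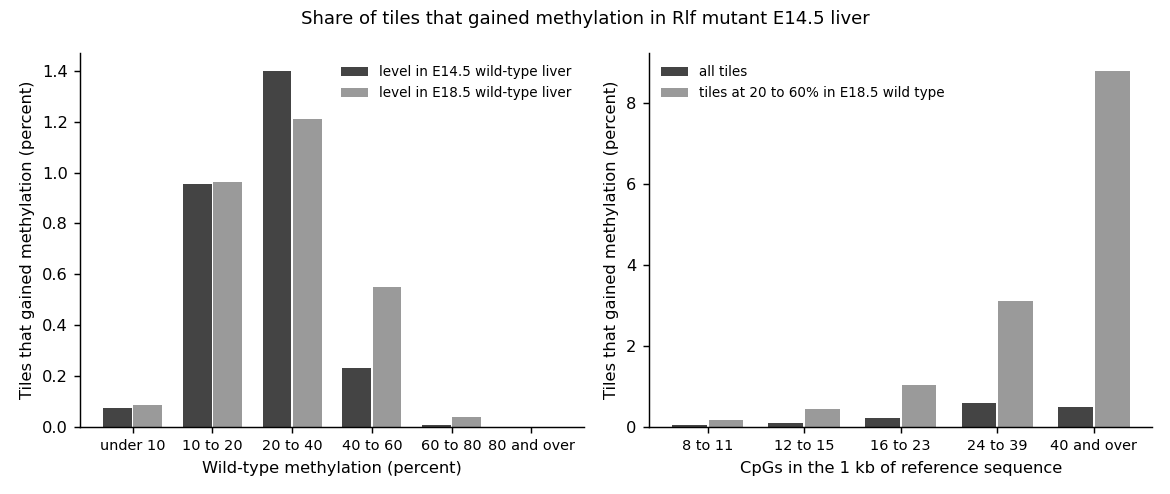
Percent of 1 kb tiles that gained methylation in mutant E14.5 liver, by wild-type methylation (left, measured in E14.5 or in E18.5 wild-type liver) and by CpGs in the reference sequence (right, for all tiles and for tiles at 20 to 60% in E18.5 wild-type liver). The share peaks at 20 to 40% wild-type methylation, at 1.40% and 1.21%, and reaches 8.79% of intermediate tiles with 40 or more CpGs.

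By place, 646 of the gained tiles had their centre between genes, 341 in an intron, 79 in an exon and 86 within 1 kb of the start site of a protein-coding transcript. As a share of the tiles of each class, 0.154% gained between genes, 0.0877% in introns, 0.206% in exons and 0.201% at start sites. CpG islands were found by sequence alone (at least 200 bp, 50% G and C and an observed to expected CpG ratio of 0.6), and shores are the 2 kb on either side. Islands held 54.1% of gained tiles and 20.3% of all tiles, and shores 22.9% of gained tiles (95% exact binomial interval 20.5% to 25.5%) and 25.1% of all. This definition is wide and gave 171302 islands. With a stricter one (500 bp, 55% and 0.65), which gave 20436 islands, islands held 16.8% of gained and 4.15% of all tiles, and shores 11.2% and 4.61%. The share of gained tiles in shores therefore stood below that of all tiles under one definition and above it under the other. All 19 autosomes held gained tiles, from 0.0875% of the tiles of chromosome 16 to 0.188% of those of chromosome 5, and chromosome 4, which carries Rlf, had 0.116%.

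**Figure D3:**
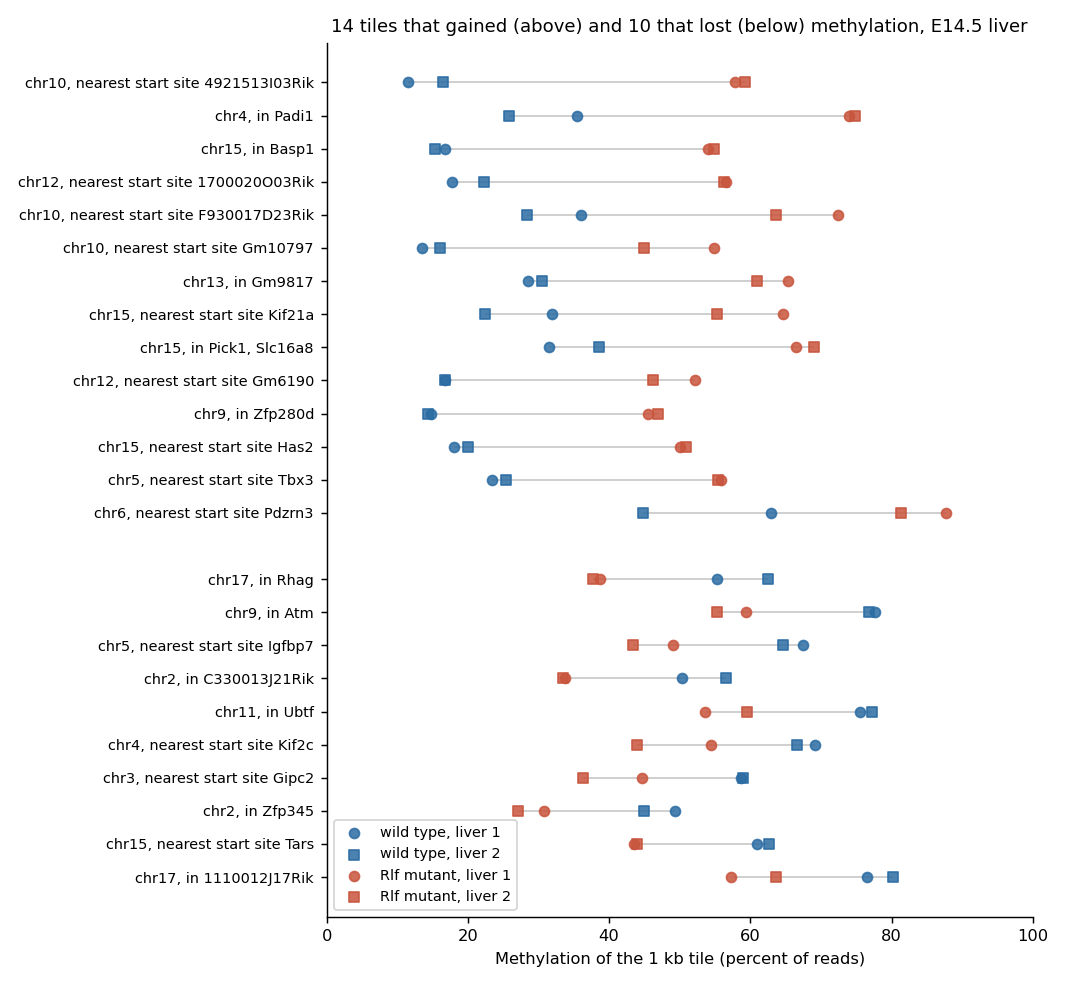
Methylation (percent of reads) of 14 of the 15 tiles with the greatest gains and of the 10 with the greatest losses, 1 symbol per E14.5 liver, named by chromosome and by the gene they lie in or the nearest protein-coding start site. Mutants and wild types do not overlap in any of the 24 tiles, which was part of how they were chosen.

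The 15 greatest gains with at least 10 reads per CpG in each liver and no overlap between genotypes reached 44.5 points. Of these, 9 lay between genes, 3 at start sites, 2 in exons and 1 in an intron. The greatest was at chr10:120131001-120132000, 71330 bp from the nearest protein-coding start site (4921513I03Rik), with 24 CpGs. It had 11.6% and 16.4% methylation in wild-type livers and 57.8% and 59.3% in mutants, a rise of 44.5 ± 2.52 points (SE, n = 2 livers per genotype), with an edgeR adjusted p of 1.19e-54. In E18.5 liver it was at 22.95% and 25.4% in wild type and at 70.3% and 69.0% in mutants, and in E10.5 embryos at 17.6% and 32.1% against 75.7% and 73.1%. The tile was thus past both thresholds in all 3 tissues.

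An exon of Padi1, which encodes a peptidylarginine deiminase, gained 43.8 ± 4.88 points at chr4:140370001-140371000 (edgeR adjusted p = 1.87e-47). Wild-type livers had 35.5% and 25.8% and mutants 74.0% and 74.9%. The rise was 42.9 points in E18.5 liver and 35.8 points in E10.5 embryos, both called. An exon of Basp1, a gene for a membrane-bound signalling protein of neurons, gained 38.4 ± 0.886 points at chr15:25294001-25295000 (edgeR adjusted p = 1.96e-43). This tile held 106 CpGs and 68.5% G and C, and had 16.8% and 15.3% in wild type and 54.0% and 54.9% in mutants. It rose by 44.9 points in E18.5 liver and by 43.5 points in E10.5 embryos. At chr12:87555001-87556000, 27319 bp from the start of 1700020O03Rik, wild-type livers had 17.7% and 22.3% and mutants 56.5% and 56.2%, a rise of 36.4 ± 2.32 points. It was called in E18.5 liver (43.0 points) and in E10.5 embryos (39.6 points) as well.

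Other gains lay between genes. At chr5:120088001-120089000, 32178 bp from the start of Tbx3, a T-box factor of limb and heart, wild-type livers had 23.4% and 25.5% and mutants 55.8% and 55.4%. At chr15:56641001-56642000, 115406 bp from the start of Has2, which makes hyaluronan, wild types had 18.1% and 20% and mutants 50.1% and 50.9%. Both tiles were called in E18.5 liver and in E10.5 embryos. Distance is all that ties these tiles to the genes named. The tile on chromosome 15 near Kif21a is the tandem repeat printed above, so read placement there is less certain.

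The tile at the start of Slc16a8, a monocarboxylate transporter gene, reached into Pick1 (chr15:79084001-79085000). It had 31.5% and 38.5% in wild-type and 66.5% and 69.0% in mutant E14.5 livers, a rise of 32.7 ± 3.75 points. In E18.5 liver it differed by 14.95 points (48.4% and 54.8% against 67.5% and 65.6%, edgeR adjusted p = 0.235), and in E10.5 embryos by 36.1 points, which was called. In an intron of Zfp280d, a zinc finger gene, the tile at chr9:72124001-72125000 had 14.8% and 14.3% in wild type and 45.5% and 46.9% in mutants, and was not covered in the other tissues. The least even of the 15 was 75609 bp from the start of Pdzrn3 on chromosome 6, where wild-type livers had 63.0% and 44.8% and mutants 87.6% and 81.3%, a rise of 30.6 ± 9.64 points. Of the 15 tiles 14 were covered in E18.5 liver, where 12 were called, and 14 in E10.5 embryos, where 12 were called.

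The 10 greatest losses under the same conditions ran from -17.9 to -20.7 points. The greatest was in an intron of Rhag, which encodes a glycoprotein of the red cell Rh complex (chr17:40961001-40962000). Wild-type livers had 55.3% and 62.4% and mutants 38.7% and 37.7%, a fall of 20.7 points with an SE of 3.59 points (edgeR adjusted p = 2.37e-05). It was lower in both mutants in E18.5 liver and in E10.5 embryos too, by 12.5 and 12.8 points, neither past the test (edgeR adjusted p = 0.647 and 0.411). An intron of Atm, the DNA damage kinase gene, had 77.6% and 76.8% in wild type and 59.4% and 55.2% in mutants (chr9:53316001-53317000). There the mutants were lower by 14.59 points in E18.5 liver (edgeR adjusted p = 0.0492, under 15 points) and by 10.4 points in E10.5 embryos. An intron of Ubtf, a factor of ribosomal RNA transcription, fell from 75.5% and 77.2% to 53.6% and 59.6% (chr11:102171001-102172000), while the other tissues differed by -3.46 and 0.0846 points. Of the 10 tiles, 8 were covered in E18.5 liver and none of these was called, with edgeR adjusted p from 0.0492 to 0.953.

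By number of gained tiles, counted from 5 kb before the start to the end of the gene, the first 10 protein-coding genes held 3 to 7 each, with ties ordered by the mean rise of their gained tiles. They were Gm20388 (7 of 3783 tested tiles), Wwox (6 of 788), Ksr2 (4 of 285) and 7 genes with 3, namely Rbmxl2 (of 3), Arhgef19 (of 19), Nkx2-6 (of 7), Kitl (of 44), Isl1 (of 14), Sdc4 (of 23) and Sim1 (of 30). Other genes, Elfn2 among them, also held 3 and came after these by that order. Gm20388 is a gene model that spans many other genes on chromosome 8, and Wwox and Ksr2 are long, which gives them more tiles to count. In all, 512 of 19806 protein-coding genes with a tested tile (2.59%) held a gained tile, 89 of them more than one, and 22 held a lost tile.

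Rbmxl2, a gene for an RNA-binding protein of germ cells, gained methylation in all 3 of its tested tiles. Its tile at chr7:114353001-114354000 held 153 CpGs, the most of any gained tile, and had 19.8% and 22.3% in wild type and 39.03% and 45.2% in mutants, a rise of 21.1 points (edgeR adjusted p = 3.47e-11). The tiles on either side rose by 25.4 and 24.8 points, and all 3 were called in E18.5 liver (by 21.7 to 27.0 points) and in E10.5 embryos (by 26.3 to 37.0 points). Arhgef19 rose by 24.7 points at a tile of 73 CpGs (chr4:140803001-140804000), from 9.57% and 10.7% to 34.7% and 34.8%, and by 22.8 and 16.3 points in E18.5 liver and E10.5 embryos, both called.

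Isl1, a LIM homeobox factor of heart and motor neurons, rose at chr13:117098001-117099000 from 4.34% and 2.98% to 23.7% and 20.9% (edgeR adjusted p = 2.88e-16). The difference there was 5.53 points in E18.5 liver (edgeR adjusted p = 0.441) and 10.1 points in E10.5 embryos (edgeR adjusted p = 0.0113, under 15 points). Of its other gained tiles, chr13:117089001-117090000 rose by 21.4 points and was called in E10.5 embryos, by 15.09 points, and chr13:117093001-117094000 rose by 16.9 points and was called in E18.5 liver, by 15.07 points. Nkx2-6, a homeobox factor of the pharynx, rose in 3 of its 7 tiles, by 15.03 to 22.5 points, among them chr14:69788001-69789000 from 12.97% and 9.35% to 35.7% and 29.6%. Sim1, a bHLH factor of the hypothalamus, rose at chr10:50624001-50625000 from 10.49% and 15.9% to 29.2% and 31.4%.

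Kitl encodes the ligand of the receptor Kit, which blood cell progenitors need. It gained in 3 intronic tiles, of which chr10:99494001-99495000 rose most, from 34.6% and 39.3% to 61.6% and 62.2% (24.95 points, edgeR adjusted p = 6.38e-10). The E18.5 livers differed by 23.2 points there, also called, and the E10.5 embryos by 13.6 points (edgeR adjusted p = 0.104). Sdc4, a cell surface heparan sulphate proteoglycan gene, rose most at chr2:164256001-164257000, from 26.5% and 26.2% to 47.1% and 48.3%, and by 26.7 and 29.7 points in the other tissues, both called.

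Gene lists for the cell types of fetal liver held 0 to 2 gained tiles each. Of 669 tiles at erythroid genes none gained and 1 was lost, the Rhag tile, and the median difference was 0.686 points, beside 1.87 points over all tiles. Hepatoblast genes had 2 gained of 626 tiles (0.319%), at Cdh1 (E-cadherin) and at Hhex, a homeobox gene needed in liver bud and blood development. The Hhex tile, chr19:37507001-37508000, lay 123 bp from the start of the gene and rose from 28.2% and 24.3% to 48.5% and 45.1% (edgeR adjusted p = 1.15e-09), and by 20.7 points in E18.5 liver, also called, while E10.5 embryos differed by 13.97 points (edgeR adjusted p = 0.0547). Endothelial genes had 2 of 837 tiles (0.239%), both in introns of the VEGF receptor gene Flt1, and haematopoietic regulators 2 of 1314 (0.152%), at Hhex and at Mecom. Mesenchymal genes (510 tiles), genes of macrophages and granulocytes (167 tiles) and megakaryocyte genes (328 tiles) had none. The share of all tiles that gained was 0.130%.

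Neural transcription factors had 4 gained of 792 tiles (0.505%, beside 0.130% of all tiles), at Pax7, Zic1 and Olig3. The Zic1 tile, chr9:91254001-91255000 in an exon of this factor of the dorsal neural tube, rose from 3.92% and 4.65% to 19.9% and 22.9% (edgeR adjusted p = 7.84e-10), and differed by 5.74 and 0.827 points in E18.5 liver and E10.5 embryos, neither past the test. An Olig3 tile, chr10:19078001-19079000, rose from 21.2% and 30.7% to 39.9% and 49.4%, and by 34.1 points in E10.5 embryos, which was called, while E18.5 livers differed by 17.4 points (edgeR adjusted p = 0.290). Factors of mesoderm and limb had 3 of 856 tiles (0.350%), at Tbx5, Prrx2 and Alx4, and Hox genes 1 of 323, at Hoxb1. That tile, chr11:96228001-96229000, went from 7.30% and 8.73% to 20.8% and 27.4%.

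Among signalling genes, Wnt effectors had 2 gained of 1528 tiles (0.131%, beside 0.130% of all tiles), at Wnt2 and at the Wnt receptor gene Fzd1. They had 1 lost, at Tcf7l1, beside 0.00416% of all tiles. The Fzd1 tile, chr5:4755001-4756000, rose from 23.3% and 31.2% to 47.9% and 50.4%, and by 21.8 and 25.4 points in the other tissues, both called. Genes of the TGF-beta and BMP pathway had none of 1630 tiles called, and genes of the hedgehog, Notch and FGF pathways 1 of 3231 (0.0310%), at Fgfr2. Genes of the DNA methylation machinery had 2 of 538 tiles (0.372%), 5146 bp before the start of Tet2 and at Dnmt3l. A list of modifiers from the same mutagenesis screen and of further genes, such as Kdm1a and the Rlf paralog Zfp292, had 1 of 848 (0.118%), at D14Abb1e. Imprinted genes, which carry methylation on one parental copy, had 4 of 1518 (0.264%). The Grb10 tile, chr11:11938001-11939000, lies at a start site of the gene and rose from 27.2% and 29.9% to 42.0% and 45.6%, and by 21.4 and 19.9 points in E18.5 liver and E10.5 embryos, both called. The others were at Gnas, Phlda2 and Trappc9.

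Of 12 genes that the study names, 2 held gained tiles, which are not independent evidence, since the study chose Bai2 from its methylation data and Atp2b2 from its RNA-seq data. Bai2, a brain angiogenesis inhibitor receptor gene, rose in adjoining intronic tiles. At chr4:129684001-129685000 wild-type livers had 29.95% and 25.6% and mutants 50.8% and 54.6% (24.9 points, edgeR adjusted p = 2.11e-14), and the other tissues differed by 30.5 and 32.7 points, both called. Atp2b2, a plasma membrane calcium pump gene, rose by 16.3 points in an exonic tile 294107 bp from its start. The 97 tiles at Smad3 and the 68 at Smad6 differed by -4.69 to 8.16 and by -5.72 to 8.93 points, and none was called. Tiles between these genes, beyond 5 kb before a start, were not counted here. Rlf itself had 24 tiles, with differences of -3.78 to 5.24 points and none called.

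The gains recurred in the other tissues, whose libraries took no part in choosing the tiles. Of the 963 gained tiles covered in E18.5 liver, 947 (98.3%, beside 72.2% of all tiles covered there) were higher in the mutants and 379 (39.4%, 95% exact binomial interval 36.3% to 42.5%) were called higher, beside 0.131% of all E18.5 tiles, and none was called lower. The unadjusted p was under 0.05 for 780 of them (81.0%, beside 7.503% of all). The median E18.5 difference was 15.3 points, against 2.05 points over all tiles. Of the 908 covered in E10.5 embryos, 877 (96.6%, beside 67.5% of all) were higher and 365 (40.2%, interval 37.0% to 43.5%) were called higher, beside 0.366% of all E10.5 tiles, with a median of 13.5 points against 1.14 points. Again none was called lower. Tiles are not independent of each other, so these intervals describe counting only.

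The share called moved when a library was left out, and the spread in such a fit comes from the other genotype alone. For E18.5 liver it was 12.3% without wild-type replicate 1, 8.51% without wild-type replicate 2, 33.7% without mutant replicate 1 and 54.4% without mutant replicate 2. The edgeR dispersion, its estimate of the spread beyond counting, was 0.0186 and 0.0180 without a wild type and 0.00683 and 0.00690 without a mutant, beside 0.0126 with all 4 livers, so these shares do not tell the weight of 1 library from the change in estimated spread. E18.5 mutant 1 was the more methylated of the mutants over all tiles (71.2% against 67.6%, with wild types at 66.9% and 67.3%). For E10.5 embryos the lowest share was 23.1%, without wild-type replicate 1. Of the tiles called gained without E14.5 wild-type liver 2, 15.6% were called in E18.5 liver and 18.8% in E10.5 embryos. Mean levels over gained tiles were 44.0% and 43.3% in wild-type and 61.1% and 58.1% in mutant E18.5 livers, and 52.0% and 56.9% against 68.7% and 68.6% in E10.5 embryos. In both tissues the 2 mutants stood above the 2 wild types.

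Of the 894 gained tiles covered in all 3 tissues, 246 were called in both others, 126 only in E18.5 liver, 118 only in E10.5 embryo and 404 in neither. A difference under 5 points was found at 43 tiles in E18.5 liver, at 176 in E10.5 embryo and at 24 in both. Whether the effect of genotype differed between E14.5 and E18.5 liver was tested in 1 model over the 8 livers. Of the 963 gained tiles 0 passed by edgeR at an adjusted p under 0.05, and 0 by limma, while 104 (10.8%) had an unadjusted p under 0.05, beside 3.22% of all tiles. Leaving out one library at a time gave 0 to 2. The E14.5 difference was the larger at 656 of the 963, with medians of 17.5 and 15.3 points, and these tiles were chosen for a large E14.5 difference. Over all tiles 3 of 672782 passed. No stage difference was detected at the gained tiles, which does not show that there was none.

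**Figure D4:**
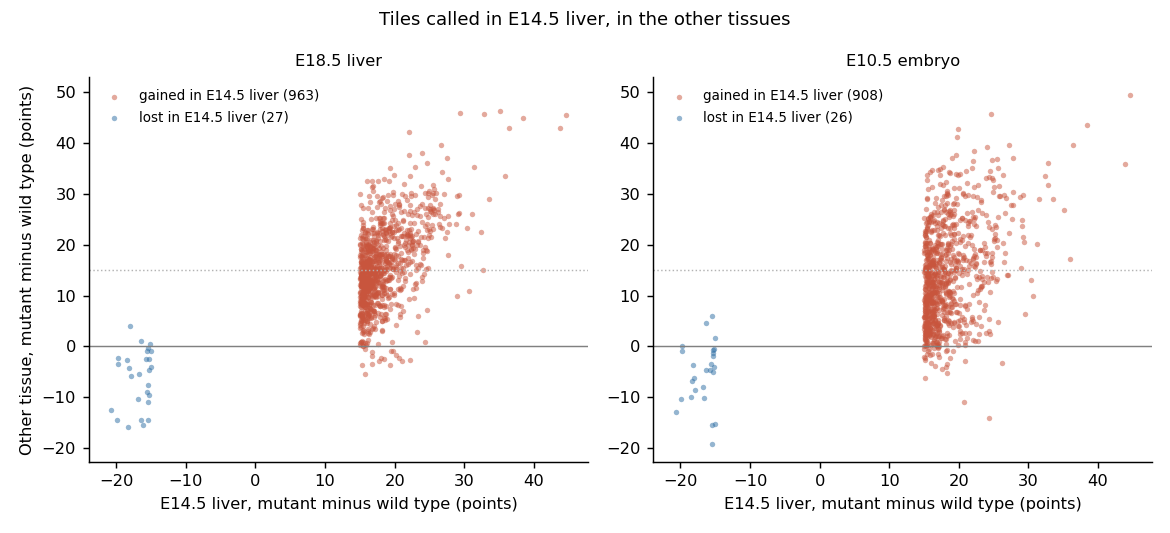
Mutant minus wild-type difference (points) of tiles called in E14.5 liver (x axis) in E18.5 liver (left) and E10.5 embryo (right), 1 point per tile, with 963 and 908 gained and 27 and 26 lost tiles covered. Nearly all gained tiles lie above 0 in both other tissues, 947 and 877 of them, while the lost tiles spread around smaller falls.

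Lost tiles were few. Of 27 covered in E18.5 liver, 24 were lower in the mutants, with a median of -4.56 points. By edgeR 0 were called lower and 8 (29.6%) had an unadjusted p under 0.05, beside 7.503% of all tiles. Of 26 covered in E10.5 embryos 22 were lower, 9 (34.6%, beside 10.8% of all) had an unadjusted p under 0.05 and 2 (7.69%, beside 0.00316% of all) were called lower, with a median of -4.65 points. The tissues differ in wild-type level too, and also in labelled sex. Over the gained tiles covered in each tissue, wild types averaged 54.5% in E10.5 embryo, 37.4% in E14.5 liver and 43.6% in E18.5 liver. Over all tiles covered there they averaged 77.2%, 62.6% and 67.1%. Mutants averaged 68.7%, 55.7% and 59.6% over the gained tiles, in the same order. These were different sets of 908, 1152 and 963 gained tiles, and the E14.5 values also selected the tiles.

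RNA-seq of 3 wild-type and 3 mutant E14.5 livers gave the transcripts of the genes at these tiles. Of 14183 genes tested, 99 (0.698%) rose and 98 (0.691%) fell in the mutants (adjusted p under 0.05 in edgeR's quasi-likelihood test). Of 324 tested genes with a gained tile, 3 (0.926%) rose and 13 (4.01%) fell, and the median log2 fold change of the 324 was 0.02. Most genes with a gained tile were not called. Among tested protein-coding genes with the centre of a gained tile within 1 kb of the start, 3 of 25 fell and none rose, with a median log2 fold change of -0.08. The count of 16 was 6 without mutant replicate 3, 7 without mutant replicate 1, and 10 without wild-type replicate 1 or 3. Calls over all tested genes dropped in these fits too. Without mutant replicate 3, 1.82% of genes with a gained tile fell, beside 0.2998% of all tested genes. These shares were 2.12% and 0.271% without mutant replicate 1. They were 3.04% and 0.4103% without wild-type replicate 1, and 2.73% and 0.418% without wild-type replicate 3. Of these genes none rose, except 1 without wild-type replicate 3 (0.303%, beside 0.314% of all). The count of 16 became 11 when the tile had to lie within 10 kb of the gene's start, which leaves Atp2b2 out. With no filter on low counts it was 27, 11 of these rises. In that fit 2.09% of genes with a gained tile rose and 3.04% fell, beside 1.44% and 0.9799% of all tested genes. A fit with replicate number as a block treats same-numbered livers as pairs. In it 8 of the 324 rose (2.47%, beside 1.85% of all 14183 genes) and 15 fell (4.63%, beside 1.39%).

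Apoc1, the gene of apolipoprotein C-I, fell most clearly. Its level was 192, 144 and 154 CPM, counts scaled to the library size, in wild-type livers and 44.4, 52.8 and 41.3 in mutants, a log2 fold change of -1.83 (edgeR adjusted p = 3.75e-06). The tile chr7:20277001-20278000, with its centre 507 bp from the gene's start at 20278007, rose from 50.4% and 50.8% to 77.6% and 81.8%. It rose by 26.0 points in E18.5 liver and 23.7 points in E10.5 embryos, both called. Noxa1, which encodes an activator of an NADPH oxidase, had 3.52, 4.02 and 3.28 CPM in wild type and 1.64, 1.59 and 1.26 in mutants (log2 fold change -1.28, edgeR adjusted p = 0.0143). Its start lay 169 bp from the centre of a tile that rose from 32.8% and 38.0% to 58.3% and 57.9%. No label ties the RNA livers to the bisulphite livers. The 200 bases of both tiles where the rise was greatest are shown for the density of the CpGs concerned, marked as above, and neither stretch holds the start of its gene.
Tile near the start of Apoc1, chr7:20277175-20277374: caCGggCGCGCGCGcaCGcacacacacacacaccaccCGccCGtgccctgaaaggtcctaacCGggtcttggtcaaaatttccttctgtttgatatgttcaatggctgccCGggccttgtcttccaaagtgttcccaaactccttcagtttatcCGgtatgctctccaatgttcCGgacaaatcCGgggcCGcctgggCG
Tile near the start of Noxa1, chr2:24950341-24950540: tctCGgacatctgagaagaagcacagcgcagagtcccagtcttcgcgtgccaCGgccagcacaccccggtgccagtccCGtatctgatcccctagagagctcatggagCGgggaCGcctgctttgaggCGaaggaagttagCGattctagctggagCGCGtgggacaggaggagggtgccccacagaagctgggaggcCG

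Zfp783 is a processed transcript in the annotation and not among the 25 protein-coding genes. With 9.86, 9.62 and 7.47 CPM in wild type and 3.35, 2.67 and 2.44 in mutants (log2 fold change -1.67, edgeR adjusted p = 0.000775), it had a gained tile 694 bp from its start, at 26.5% and 35.7% in wild type and 54.8% and 48.6% in mutants. Dnajb3, a chaperone gene, fell from 14.596, 8.96 and 11.4 to 4.52, 4.05 and 2.51 CPM. Its tile rose by 15.2 points and is shared with Ugt1a9, and since reads were counted without strand the RNA of overlapping genes there is uncertain. Neurl1a had 2 adjoining gained tiles 61190 and 62190 bp from its start, of which the second rose from 32.0% and 26.1% to 60.9% and 55.6%, and its RNA fell from 2.52, 4.02 and 4.67 to 1.40, 1.301 and 1.96 CPM. The transcript 1700006J14Rik, which overlaps Hmga2, fell from 3.13, 4.22 and 3.35 to 0.545, 1.08 and 0.698 CPM, and Atp2b2 from 4.05, 3.82 and 2.44 to 0.935, 1.01 and 0.768 CPM. The levels of wild type and mutant did not overlap for any of these genes, which were chosen by the test on the same livers.

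The other falls were of Ankrd43, Kcnab2, Fscn1, Ugt1a9, Enpp3 and Plcl2, with log2 fold changes of -0.39 to -1.18. The 3 rises were of Ptprk (0.45), Cpm (0.39) and Fndc3a (0.30), all small. Of 13 tested genes with a lost tile 1 changed, the zinc finger gene Zfp507, which fell from 23.5, 27.0 and 28.8 to 17.3, 17.8 and 14.4 CPM while its intronic tile fell from 77.1% and 75.9% to 58.9% and 61.8%. Of the 17 genes, 6 had an adjusted p under 0.05 in every alternative fit of the RNA, namely Apoc1, Zfp783, 1700006J14Rik, Dnajb3, Atp2b2 and Ankrd43. The other 11, Noxa1 and Neurl1a and the 3 rises among them, each missed the adjusted p when at least 1 of the 6 livers was left out, and all 17 were called with replicate number as a block.

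**Figure D5:**
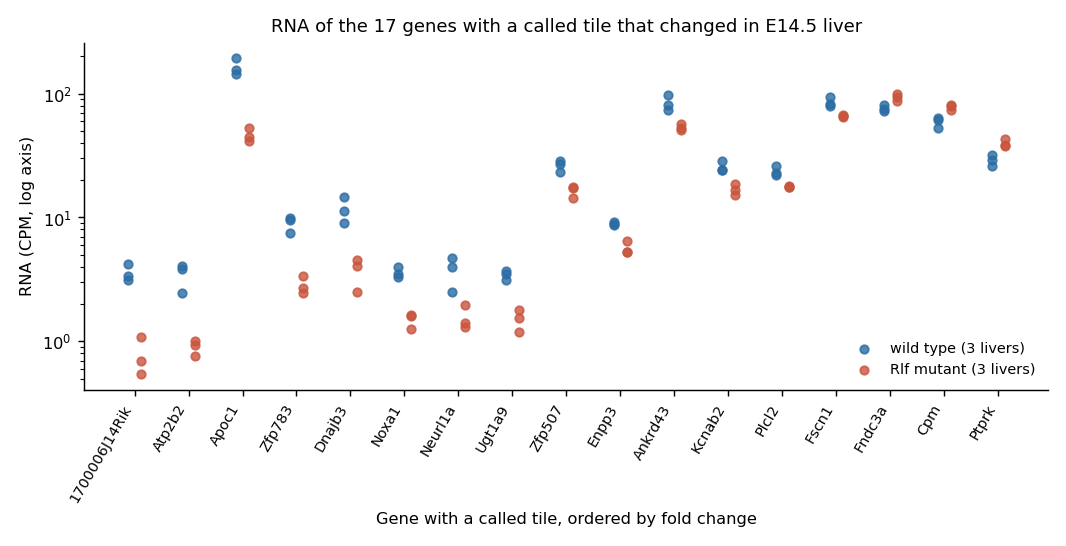
RNA level (CPM, log axis) in 3 wild-type and 3 mutant E14.5 livers of the 17 genes with a called tile whose RNA changed, ordered by fold change, 1 point per liver. Of the 16 genes with a gained tile 13 are lower in the mutants, Apoc1 and 1700006J14Rik among them, and 3 are higher.

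The labelled tissue was checked by marker genes. Erythroid markers (24 genes) summed to 36937 to 65498 CPM in wild-type and 44807 to 48614 CPM in mutant livers and hepatoblast markers (26 genes) to 58875 to 69554 and 71729 to 83104 CPM, and no marker of the 6 lists that was counted stood at 0 in all livers. None of the erythroid, hepatoblast, endothelial or mesenchymal markers changed in RNA by the test. Of 14 markers of macrophages and granulocytes, 4 fell (Elane, Prg2, Ngp and Camp), beside 0.691% of all tested genes. The others, Csf1r, Cd68, Marco, Mpo, Prtn3, Cebpe and Csf3r among them, were not called. Summed levels of this list were 994 to 1244 CPM in wild type and 824 to 951 CPM in mutants. Of 12 megakaryocyte markers, 2 rose (Itgb3 and Pf4), beside 0.698% of all tested genes, with sums of 725 to 777 and 908 to 989 CPM. Methylation within 500 bp of start sites averaged 10.1% and 11.2% in wild type and 12.7% and 11.8% in mutants over 21 erythroid genes, and 29.0% and 31.2% against 31.6% and 31.3% over 26 hepatoblast genes. The mutants were higher on average by 3.57 points over 16 endothelial genes, by 2.60 points over 11 megakaryocyte genes, by 2.26 points over 14 genes of macrophages and granulocytes and by 1.29 points over 14 mesenchymal genes, beside 1.61 and 1.34 points for the erythroid and hepatoblast genes. The part of these differences between livers in the methylation results was not tested.

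RNA of Rlf itself did not show the genotype. It was 70.2, 72.1 and 68.5 CPM in wild type and 76.6, 79.9 and 67.3 CPM in mutants (log2 fold change 0.08, edgeR adjusted p = 0.646), and the RNA level of an allele that is null for the protein need not fall.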

How the data were processed

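Whole-genome bisulphite sequencing covered 4 E14.5 livers, 4 E18.5 livers and 4 E10.5 embryos, and RNA-seq 6 E14.5 livers. The authors mapped bisulphite reads with Bismark and Bowtie2 to mm9 carrying FVB/NJ substitutions, removed PCR duplicates and merged strands, and deposited counts of methylated and unmethylated reads per CpG. For RNA the authors mapped with Tophat and deposited htseq-count read counts per gene, counted without strand. Reads misplaced or lost at repeats, and cell mixture, can change both kinds of value.

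Here CpGs with 6 or more reads in all 4 files of a tissue were kept. Counts were summed in 1 kb tiles with at least 8 such CpGs on chromosomes 1 to 19. A tile's level is its methylated count as a percent of its whole count, where a read counts once for each CpG that it covers. Tiles were tested with edgeR 4.0.16 (R 4.3.3), whose quasi-likelihood test was fitted to methylated and unmethylated counts of all tiles with Benjamini-Hochberg adjustment. Calls needed both an adjusted p under 0.05 and more than 15 points between the genotype means. RNA counts were normalised by TMM, filtered by filterByExpr and tested in the same way. Intervals are 95% exact binomial and cover counting error only. The tests were also run on simulated data with known changes, and what they recovered is not given here.

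Named tiles were the 15 greatest gains and 10 greatest losses with 10 reads per CpG in each liver and no overlap between genotypes, the 10 protein-coding genes with most gained tiles, called tiles at genes of 17 lists, and genes with a called tile whose RNA changed. Members and lists were chosen with earlier results of these data known. Same-numbered RNA livers deviated together (correlations of 0.141, 0.220 and 0.415), but no label gives pairs, and replicate number also follows labelled sex there. Replicates are separate livers or embryos. Genes and start sites came from the NCBIM37 annotation, sequences from that assembly. Alternatives were other coverage minimums, CpG minimums, tile sizes and limits, limma 3.58.1, DESeq2 1.42.0, a replicate block and leaving out each replicate. One of the 15 gained tiles is not reported here.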

Additional observations from a re-analysis of the deposited data

Results flagged for a closer look

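At 2 adjoining tiles in exons of Cdh15, a cadherin gene that the Gm20388 model also spans, the mutants stood above both wild types in E14.5 liver and below both in E10.5 embryo. The tile at chr8:125388001-125389000 had 48.1% and 46.3% in wild-type and 66.6% and 76.6% in mutant E14.5 livers. In E10.5 embryos it had 82.0% and 83.8% in wild type and 63.9% and 73.9% in mutants, a difference of -14.0 points. The tile at chr8:125389001-125390000 had 57.9% and 53.7% against 71.7% and 81.2% in E14.5 liver, and 90.2% and 84.5% against 69.2% and 83.4% in E10.5 embryo, a difference of -11.0 points. In E18.5 liver the first tile had 72.7% and 50.2% in wild type and 52.5% and 72.1% in mutants, a difference of 0.840 points. The second had 76.6% and 60.7% in wild type and 53.2% and 79.3% in mutants, a difference of -2.38 points. Livers of the same genotype thus lay far apart there. The difference between the tissues was not tested.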

How the results depend on the processing

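Of 132 recomputed values of the main results, 61 moved little and 71 moved. With at least 12 CpGs per tile there were 21 lost tiles, and gained tiles had a median wild-type level of 36.9% and 21 CpGs per kb, with 18.6% in shores, 43.2% called in E18.5 liver and 44.0% in E10.5 embryo. Tiles of 500 bp gave 1796 gained and 59 lost, a level of 36.3%, 24 CpGs per kb, and 29.0% and 34.1% called. A limit of 20 points gave 257 and 2 tiles, 31.0%, 21 CpGs, 16.7% in shores, and 70.6% and 62.4% called. A limit of 10 points gave 3750 and 144 tiles, 42.0%, and 17.3% and 22.3% called. Limma called 683 and 22 tiles (662 of the 683 shared), with 33.4%, 20 CpGs, 20.1% in shores, and 54.3% and 51.9% called. In E18.5 wild-type livers the level of gained tiles was 45.1%, stricter islands put 11.2% in shores, and with no filter on low counts 27 genes changed in RNA. A higher limit in points calls fewer tiles and a lower one more by construction. The cause of the other changes, with 500 bp tiles and limma among them, was not tested.

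Leaving out 1 library at a time gave 577 to 3676 gained and 14 to 83 lost tiles, a mean difference over all tiles of 0.692 to 3.37 points, a median wild-type level of 31.3% to 45.6%, 12 to 22 CpGs per kb, and 15.3% to 26.1% in shores. The share called was 8.51% to 54.4% in E18.5 liver and 18.8% to 48.6% in E10.5 embryo, 0 to 2 tiles differed between E14.5 and E18.5 liver, and 6 to 15 genes changed in RNA. In the bisulphite fits of 1 tissue the lone library was assumed to vary like the other genotype.

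With replicate number as a block, 1068 gained and 34 lost tiles were called and 23 genes changed in RNA, and no other call of the main results changed. Same-numbered E14.5 livers did not deviate together (correlation 0.00369), and replicate number is also the labelled sex in these libraries. Of 106 tiles that the naming rules chose, some of them not described in the text, 43 kept their call under every alternative that tested them. Only 2 livers per genotype were measured, and tandem repeats limit read placement.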
